A study of Mus musculus with 6 samples.

Results

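The genes described here are chemokines, small secreted proteins that steer cell migration, and chemokine receptors, the G protein-coupled receptors that read them. The 10 genes were given by name: the receptors Cxcr6, Ccr2, Ccr4, Ccr8 and Cxcr4, and the ligands Ccl1, Ccl3, Ccl4, Ccl5 and Xcl1. Of these, 8 were matched among the 17546 genes of the count table and 7 passed the filter on low counts that left 13325 genes for testing. Ccl4 fell below that filter. Ccl1 and Xcl1 matched no gene of the table by symbol or by an older symbol and were not analysed here.

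The samples were ILC2s (group 2 innate lymphoid cells), antigen receptor-negative lymphocytes that make type 2 cytokines, taken from the lungs of BALB/c mice. All mice had received 3 intranasal doses of 1 µg of recombinant IL-33, an alarmin that activates ILC2s, and all cells were kept in recombinant IL-7 and IL-2 (10 ng/mL of both). The control group was exposed to DMSO (libraries DMSO 1, 2 and 3) and the other group to 10 µM Yoda1 (libraries Yoda1 4, 5 and 6), for 24 h in both. Yoda1 is a small-molecule activator of Piezo1, a mechanically gated cation channel, and the comparison asks how its activation changes transcript levels in ILC2s. The cells were already activated in both groups, and no unstimulated cells were compared. The age and sex of the mice, and any pooling of mice, were not given in the sources used here.

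A chemokine receptor couples mainly to inhibitory G proteins, whose released beta-gamma subunits activate phosphoinositide 3-kinase gamma and small GTPases that polarise and move the cell. Regulators of G protein signalling (RGS proteins) and G protein-coupled receptor kinases end the signal. ILC2s are mostly tissue-resident, and CXCR6, CCR4, CCR8 and CCR2 are receptors described on them, while CCL1 is the ligand of CCR8 and XCL1 that of XCR1.

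Total counts ran from 14214048 to 31627519 per library. With 3 counts of the total as the limit that a count of 0 allows, a gene without reads could lie at up to 0.0949 CPM in DMSO 2 and 0.211 CPM in DMSO 3 (counting error only). All 15 listed ILC2 markers were tested. Gata3, Il1rl1 and Il5 were at 781 to 1032, 556 to 700 and 5308 to 8429 CPM in the 6 libraries. Thy1 was at only 0.115 to 2.87 CPM. Not all markers were stable: Arg1 rose (1.90-fold, edgeR, adjusted p = 0.00868), and 12 did not pass. Icos and Il2ra fell, to 0.538 and 0.629 of their control level (edgeR, adjusted p = 0.00423 and 0.00707). Before adjustment edgeR had 5 of the 15 higher and 4 lower (p under 0.05), against 7.39% and 7.11% of all tested genes. Libraries DMSO 2 and DMSO 3, whose labels share a number, held the club cell gene Scgb1a1 at 302 and 293 CPM, against 0 in DMSO 1, Yoda1 4 and Yoda1 5 and 0.0585 CPM in Yoda1 6. The summed epithelial markers, of which 9 of 11 were in the table, were at 92.4 to 421 CPM with DMSO and 55.9 to 76.1 CPM with Yoda1. Epcam, the highest of them with Yoda1, was at 67.4, 64.5 and 65.9 CPM with DMSO and 57.8, 48.8 and 71.6 CPM with Yoda1. Krt8 and Cdh1 were at 0 in DMSO 1 and in each Yoda1 library. In bulk RNA, fewer cells of a type and less RNA per cell cannot be told apart.

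Of the 7 tested genes, Cxcr6 rose with Yoda1 and 6 did not pass; none fell (quasi-likelihood test of edgeR with an adjusted p under 0.05 by the Benjamini-Hochberg method over all genes). Limma voom gave the same counts, 1 higher and 0 lower, as did DESeq2, which gave no adjusted p for Cxcr4, Ccl3 and Ccl5 and so could call 4 of the 7; at an unadjusted p under 0.05 edgeR also had 1 higher and 0 lower. Among all 13325 tested genes 0.570% were called higher, 0.923% lower and 1.49% in either direction in edgeR. At the unadjusted threshold 7.39% were higher and 7.11% lower. Of the same 13325 genes voom called 121 higher and 179 lower, and DESeq2 414 and 452. The median log2 fold change was 0.07 over the 7 genes and 0.01 over all tested genes. Groups did not overlap for 2 of the 7 genes, Cxcr6 and Cxcr4, both higher with Yoda1; over all genes this held for 10.6% in that direction and for 22.6% in either. Levels are in CPM, read counts relative to the library total. For tested genes that total is of tested genes after TMM scaling. For genes below the filter and for summed markers it is of all counts, without that scaling. A log2 fold change above 0 means a higher level with Yoda1.

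**Figure D1:**
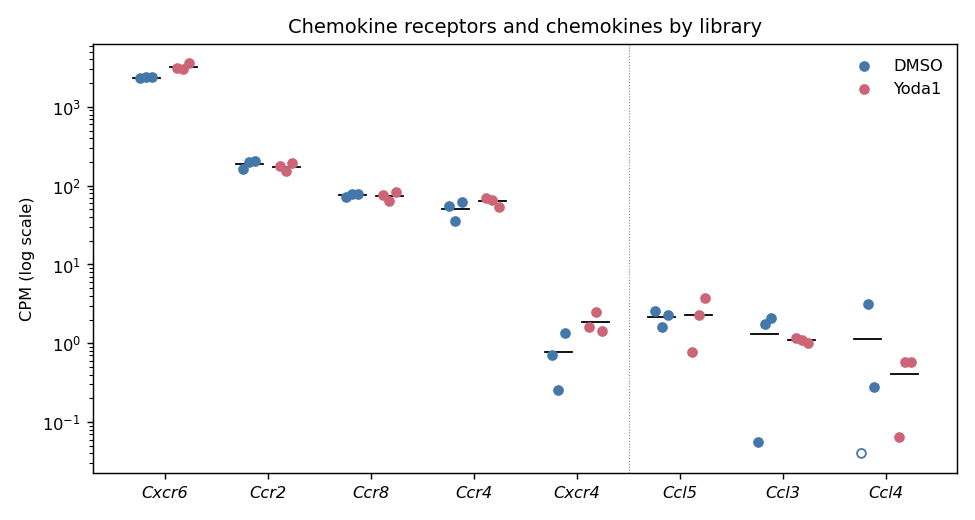
Level of each gene in CPM on a log axis, with 1 point per library, DMSO in blue and Yoda1 in red, and a bar at the mean of 3 libraries; the open point is a library at 0. Cxcr6 lies at 2304 CPM or more in each library, Ccr2, Ccr8 and Ccr4 between 35.4 and 203 CPM, and Cxcr4 and the 3 ligands at 3.70 CPM or less.

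Cxcr6 encodes the receptor of CXCL16, a chemokine that also exists as a membrane-bound protein, and marks many tissue-resident lymphocytes. DMSO 1, 2 and 3 held it at 2304, 2366 and 2400 CPM, and Yoda1 4, 5 and 6 at 3113, 2995 and 3554 CPM. Each Yoda1 library was above each DMSO library, and the Yoda1 libraries were also the more spread. The mean rose from 2357 ± 48.7 to 3221 ± 295 CPM (SD, n = 3 per group), a 1.37-fold change with a 95% interval of 1.22 to 1.53. On the log2 scale this was 0.45 (SE 0.07, edgeR, adjusted p = 0.0257). The call rested on having all 3 DMSO libraries and Yoda1 5: the adjusted p was 0.114, 0.146 and 0.144 without DMSO 1, 2 and 3 and 0.0614 without Yoda1 5. The size stayed between 0.37 and 0.50 in each of the 15 alternative fits. With DMSO 1 alone against Yoda1, which leaves out DMSO 2 and DMSO 3 with their Scgb1a1, it was 0.48, with 1 control library. That fit did not leave out all epithelial genes: DMSO 1 held Sftpc at 15.3 CPM, against 0 to 0.569 CPM in the other libraries. Sftpa1 was at 3.75 CPM in DMSO 1, 21.3 and 21.7 CPM in DMSO 2 and DMSO 3, and 0 to 0.923 CPM with Yoda1. The part of epithelial RNA in the change of Cxcr6 was not tested. Cxcr6 also missed the threshold with libraries of a shared label number summed, which leaves 2 per group (0.49, adjusted p = 0.225), and with the label suffix as a term (0.42, adjusted p = 0.364). In the labels the suffix was 0 for DMSO 1 and DMSO 2 and 45 to 48 for DMSO 3 and the Yoda1 libraries. The term split suffix 0 from the others, so that fit in effect set Yoda1 against DMSO 3 alone.

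Other lymphocytes can also express Cxcr6, and their part in its change was not tested. Of 12 markers of natural killer cells and ILC1s 6 were in the table, and they summed to 156 to 213 CPM with DMSO and 44.3 to 62.1 CPM with Yoda1. That difference came from the granzyme genes Gzma and Gzmb, which fell in edgeR (means of 48.1 and 12.6 CPM, adjusted p = 0.00887, and of 138 and 36.0 CPM, adjusted p = 0.00452); Prf1 was at 1.73 and 2.34 CPM, Eomes at 0.295 and 0.372 CPM, and Tbx21 at 0 in all libraries but DMSO 2 (0.538 CPM). Of 11 T cell markers 7 were in the table, at 108 to 127 CPM summed with DMSO and 87.7 to 95.4 CPM with Yoda1, and none of the 5 tested passed in edgeR, DESeq2 or voom, nor at an unadjusted p of 0.05 in edgeR. All 5 had a log2 fold change below 0. Groups were apart, lower with Yoda1, for 2 of the 5, Cd3e (means of 2.37 and 0.811 CPM) and Cd3g (31.5 and 24.1 CPM). This held for 12.0% of all tested genes. Cd3d, below the filter, was also apart (1.02 and 0.240 CPM). The T cell receptor gene Trac was at 0 in DMSO 2, DMSO 3, Yoda1 4 and Yoda1 5, at 0.500 CPM in DMSO 1 and at 0.643 CPM in Yoda1 6.

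Cxcr6 lies on chromosome 9 at 123806475 to 123811760 on the plus strand (GRCm38, GENCODE M21), wholly within the span of Fyco1, which is transcribed from the other strand and shares no exonic base with it. Whether the counting used strand is not stated, so reads from unspliced Fyco1 RNA and from Cxcr6 cannot be told apart. Fyco1 itself was at 22.1, 20.0 and 27.5 CPM with DMSO and 22.0, 14.8 and 18.3 CPM with Yoda1, without a call (edgeR, adjusted p = 0.578). That level need not reflect unspliced Fyco1 RNA over Cxcr6, and the part of such RNA in the Cxcr6 counts was not tested.

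The promoters of Cxcr6, which rose, and of Ccr2, Ccr8 and Ccr4, which did not pass, are shown because these 4 receptors lie on the same chromosome and differ in their result. Each is the window around the annotated start in RefSeq, on GRCm38.p6, from upstream to shortly after it; 8 of the 10 genes matched that table, and Ccl4 and Ccl5 did not. Capitals mark the letters GGAAA on either strand (TTTCC when read on the other), the core that NFAT factors, which calcium activates, bind.

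Cxcr6, chr9:123806227-123806526, plus strand: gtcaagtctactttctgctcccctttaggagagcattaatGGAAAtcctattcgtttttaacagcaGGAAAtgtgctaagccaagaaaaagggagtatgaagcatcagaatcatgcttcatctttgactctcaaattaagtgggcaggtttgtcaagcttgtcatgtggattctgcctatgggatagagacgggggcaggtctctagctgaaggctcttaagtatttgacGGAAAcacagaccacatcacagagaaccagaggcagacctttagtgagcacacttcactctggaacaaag
Ccr2, chr9:124101933-124102232, plus strand: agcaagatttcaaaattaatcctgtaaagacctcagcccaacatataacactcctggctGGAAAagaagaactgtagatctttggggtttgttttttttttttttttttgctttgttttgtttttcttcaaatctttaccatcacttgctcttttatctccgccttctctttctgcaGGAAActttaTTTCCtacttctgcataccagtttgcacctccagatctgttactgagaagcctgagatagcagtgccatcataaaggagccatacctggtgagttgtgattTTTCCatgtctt
Ccr8, chr9:120091883-120092182, plus strand: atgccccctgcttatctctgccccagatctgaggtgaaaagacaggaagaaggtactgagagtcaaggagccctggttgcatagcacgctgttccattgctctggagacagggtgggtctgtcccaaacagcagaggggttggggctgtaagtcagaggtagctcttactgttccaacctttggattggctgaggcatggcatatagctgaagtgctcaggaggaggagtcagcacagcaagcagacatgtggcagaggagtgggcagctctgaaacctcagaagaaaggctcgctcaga
Ccr4, chr9:114496495-114496794, minus strand: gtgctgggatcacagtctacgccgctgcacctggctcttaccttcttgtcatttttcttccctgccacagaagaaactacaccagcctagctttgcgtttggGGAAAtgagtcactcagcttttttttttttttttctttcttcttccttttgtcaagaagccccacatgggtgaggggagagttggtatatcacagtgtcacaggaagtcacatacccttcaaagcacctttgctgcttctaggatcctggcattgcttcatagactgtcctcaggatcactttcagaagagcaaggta

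GGAAA occurred 3 times in the Cxcr6 window, at -210, -184 and -20 from the start site, 4 times in that of Ccr2, 1 time in that of Ccr4, at -148, and not in that of Ccr8. These letters are common, with a match in 61.3% of 32851 promoter windows of the same length. Of the other motifs searched on both strands, the letters AGATAA of the GATA motif were found in the Ccr2 and Ccr8 windows (11.2% of all windows), the NF-kB motif (20.7%) in that of Ccr8, and CACCC of the KLF motif (57.5%) in those of Ccr8 and Ccr4. TGANTCA (AP-1, 7.8%) was found in the Ccr4 window, directly after its GGAAA, and not in the other 3. None of the 4 windows held TTCNNNGAA (STAT, 8.3%) or AGGTGT (T-box, 13.7%). A match of letters does not show binding.

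Ccr2 encodes the receptor of CCL2, best known for drawing monocytes out of the bone marrow. DMSO 1, 2 and 3 held it at 164, 200 and 203 CPM, and Yoda1 4, 5 and 6 at 179, 152 and 192 CPM. The groups overlapped, with the lowest library in the Yoda1 group and the highest in the DMSO group. The mean was 189 ± 21.8 and 175 ± 20.2 CPM, and the fold of 0.924 had a 95% interval of 0.749 to 1.14 (SD, n = 3 per group, edgeR, adjusted p = 0.752). A change in Ccr2 as large as the 1.37-fold estimate for Cxcr6 thus lay outside the interval.

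Ccr8 encodes the receptor of CCL1 and is found on type 2 lymphocytes and regulatory T cells. It was at 72.5, 77.4 and 79.0 CPM with DMSO and at 75.9, 64.7 and 82.2 CPM with Yoda1. Yoda1 held both the lowest and the highest library, so the DMSO values lay within the Yoda1 range. The fold was 0.974, with a 95% interval of 0.780 to 1.22 (edgeR, adjusted p = 0.940).

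Ccr4 encodes the receptor of CCL17 and CCL22, chemokines made at sites of type 2 inflammation. It was at 55.3, 35.4 and 62.7 CPM with DMSO and at 69.2, 66.4 and 54.2 CPM with Yoda1. DMSO 2 was the lowest library, and the other 5 lay between 54.2 and 69.2 CPM. The log2 fold change of 0.31 (SE 0.23) did not pass (edgeR, adjusted p = 0.584), and its 95% interval as a fold, 0.870 to 1.77, includes the change seen for Cxcr6.

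Cxcr4 encodes the receptor of CXCL12, which holds leukocytes in bone marrow and other niches. It was nearly undetected: DMSO 1, 2 and 3 held 13, 8 and 19 counts, and Yoda1 4, 5 and 6 held 25, 43 and 24. As levels these were 0.717, 0.252 and 1.34 CPM and 1.61, 2.48 and 1.43 CPM. All Yoda1 libraries were above all DMSO libraries, by a narrow margin between DMSO 3 and Yoda1 6. The log2 fold change of 1.27 had an SE of 0.77 and a 95% interval from -0.48 to 3.03, and it did not pass (edgeR, adjusted p = 0.502).

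**Figure D2:**
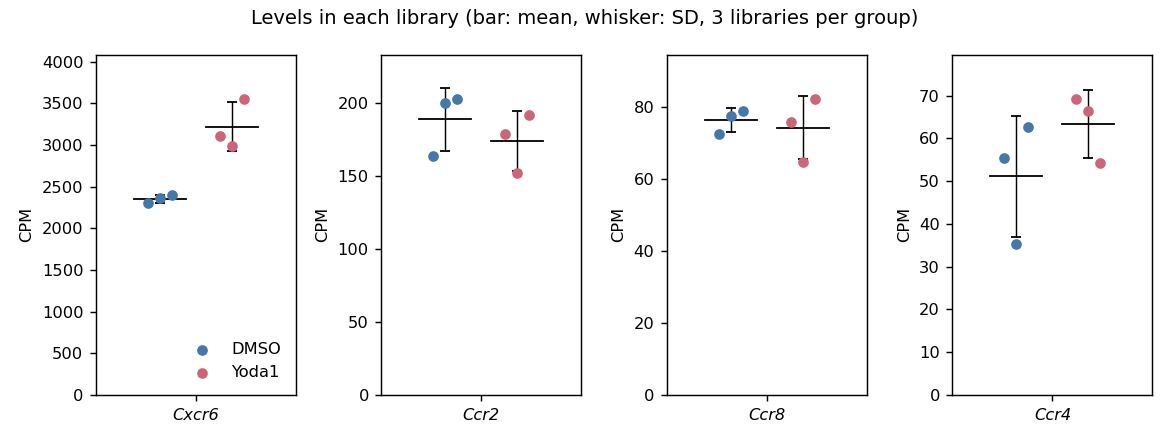
Levels of Cxcr6, Ccr2, Ccr8 and Ccr4 in CPM on linear axes that start at 0, with 1 point per library, DMSO in blue and Yoda1 in red, a bar at the mean and whiskers of 1 SD over 3 libraries. The groups are apart for Cxcr6, which is higher with Yoda1, and overlap for Ccr2, Ccr8 and Ccr4.

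Because ratios of counts within a library do not depend on depth or scaling, Cxcr6 was also set against the other receptors. There were 14.1, 11.8 and 11.8 Cxcr6 counts per Ccr2 count with DMSO (libraries 1, 2 and 3), against 17.4, 19.7 and 18.5 with Yoda1 (libraries 4, 5 and 6). For Ccr8 the ratios were 31.8, 30.6 and 30.4 with DMSO and 41.0, 46.3 and 43.2 with Yoda1. In both the Yoda1 libraries stood above all DMSO libraries (exact permutation test, two-sided, p = 0.10, the smallest that 3 against 3 allows). Against Ccr4 the groups overlapped, with means of 48.9 ± 15.6 with DMSO and 51.9 ± 11.8 with Yoda1 (SD, n = 3) (exact permutation test, two-sided, p = 0.60). These 3 ratios share the Cxcr6 counts, and their p-values were not adjusted, since none can pass 0.05.

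Per kilobase of exon, the order of the receptors was Cxcr6, Ccr8, Ccr2, Ccr4 and Cxcr4 in both groups. With DMSO the levels were 1221 ± 25.2, 64.9 ± 2.86, 27.9 ± 3.23, 16.5 ± 4.56 and 0.427 ± 0.303 CPM per kb (SD, n = 3). With Yoda1 they were 1668 ± 153, 63.2 ± 7.54, 25.8 ± 2.99, 20.5 ± 2.58 and 1.02 ± 0.310 CPM per kb. Neighbours in this order did not overlap between libraries of 1 group: the closest were Ccr2 and Ccr4, at 24.2 to 30.0 and 11.4 to 20.3 CPM per kb with DMSO and at 22.5 to 28.4 and 17.5 to 22.4 CPM per kb with Yoda1. Cxcr6 made up 91.3% to 92.0% of the summed level per kb of the 5 receptors in the DMSO libraries and 93.4% to 94.0% in the Yoda1 libraries. Lengths are the union of annotated GENCODE M21 exons, which is longer than the transcript a cell uses where a gene has several. The order of Ccr8 and Ccr2 rests on these lengths, 1.18 and 6.76 kb. In CPM Ccr2 was above Ccr8, with means of 189 and 76.3 with DMSO and 175 and 74.3 with Yoda1.

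The 3 ligands that could be read are Ccl3 and Ccl4, the macrophage inflammatory proteins alpha and beta, and Ccl5, also called RANTES. CCL3 and CCL5 act through CCR1, and CCL5 also through CCR3. They lie together on chromosome 11, Ccl5 at 83525778 to 83530518, Ccl3 at 83647844 to 83649355 and Ccl4 at 83662584 to 83664683 (GRCm38). All were low, with at most 130 counts per group, and reads could be split between the similar sequences of Ccl3 and Ccl4. Ccl5 was at 2.59, 1.61 and 2.26 CPM with DMSO and at 0.774, 2.31 and 3.70 CPM with Yoda1, where the Yoda1 libraries held both extremes. Its fold of 1.05 had a 95% interval of 0.370 to 2.99 (edgeR, adjusted p = 0.978).

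For Ccl3, DMSO 1, 2 and 3 held 1, 55 and 30 counts (0.0552, 1.74 and 2.12 CPM), and Yoda1 4, 5 and 6 held 18, 19 and 17 (1.16, 1.10 and 1.01 CPM). DMSO 1 stood apart from DMSO 2 and DMSO 3, while the Yoda1 libraries were alike. The log2 fold change of -0.26 (SE 1.00) did not pass (edgeR, adjusted p = 0.943), and its sign depended on the libraries: it was 4.13 with DMSO 1 alone against Yoda1 and -0.82 without DMSO 1. Ccl4 had 0, 100 and 4 counts with DMSO and 1, 10 and 10 with Yoda1, so that 1 library, DMSO 2, held 100 of its 104 DMSO counts. As levels these were 0, 3.16 and 0.281 CPM and 0.0651, 0.577 and 0.585 CPM, relative to all counts, and they were not tested. Among the DMSO libraries Ccl3 was low where Scgb1a1 was at 0 (DMSO 1) and higher where Scgb1a1 was high (DMSO 2 and DMSO 3). The Yoda1 libraries did not share this pattern, with Scgb1a1 at 0 to 0.0585 CPM and Ccl3 at 1.01 to 1.16 CPM. Ccl4 was high in DMSO 2 alone. The part of the epithelial markers in the values of Ccl3 and Ccl4 was not tested. The spread between the DMSO libraries of both genes was large, and no difference between the groups was resolved.

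Markers of other cells that can make these ligands were read beside them. Of 12 macrophage and monocyte markers 8 were in the table, with a summed level of 12.6 to 16.3 CPM with DMSO and 20.3 to 27.9 CPM with Yoda1. Lyz2 was at 2.66 and 9.16 CPM (log2 fold change 1.79, groups apart), Cd68 at 8.02 and 11.5 CPM and Cd14 at 1.23 and 3.43 CPM, and Ly6c2 at 0.990 to 1.36 CPM with DMSO and 0.129 to 0.519 CPM with Yoda1. None of the 4 tested passed in edgeR or voom. Before adjustment edgeR had 1 higher and 0 lower (p under 0.05), where 7.39% and 7.11% of all tested genes were. DESeq2 called Lyz2 higher, where it called 414 of all 13325 genes higher. Adgre1 was at 0.0556 to 1.68 CPM with DMSO and 0 in each Yoda1 library, and Csf1r was at no more than 0.333 CPM in any library. Of 8 mast cell and basophil markers 6 were in the table, at 35.5 to 63.3 CPM summed with DMSO and 98.5 to 112 CPM with Yoda1. The difference came from the tryptase gene Tpsab1, with means of 36.1 and 95.5 CPM (2.65-fold, edgeR, adjusted p = 0.0383, called by all 3 tools). The other 4 tested did not pass. Mcpt8 was lower with Yoda1 with groups apart (means of 2.66 and 0.764 CPM). Cpa3, Tpsb2 and Cma1 had log2 fold changes of 0.01, 0.19 and 0.23. Whether such cells, or natural killer cells, ILC1s or T cells, contributed to Ccl3, Ccl4 or Ccl5 was not tested.

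**Figure D3:**
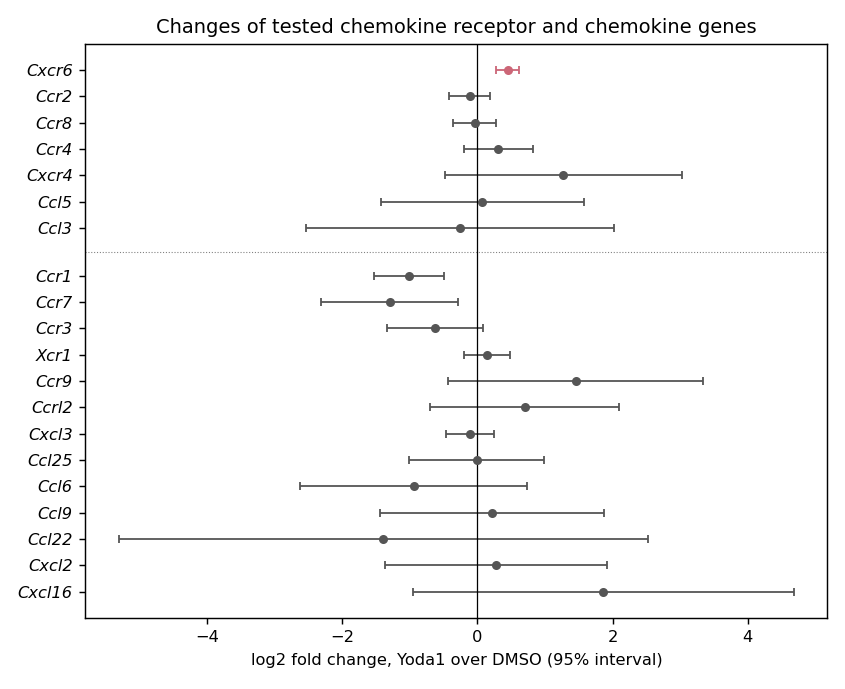
Log2 fold change of Yoda1 over DMSO with its 95% interval for the 7 tested genes above the dotted line and 13 other chemokine receptors and chemokines below it; red marks an adjusted p under 0.05 in edgeR. Of the genes shown Cxcr6 (0.45) is in red, and the intervals of the low-count genes Cxcr4, Ccl3 and Ccl5 all include 0.

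Further chemokine receptors were read beside these. Of the 18 described here 10 were in the table and 6 were tested, and none of the 6 passed in edgeR or voom. DESeq2 called Ccr1 lower and 0 higher, where it called 452 of all 13325 genes lower and 414 higher. Before adjustment edgeR had 0 higher and 2 lower (p under 0.05), where 7.39% and 7.11% of all tested genes were. Groups did not overlap for 3 of the 6, Ccr1, Ccr7 and Ccr3, all lower with Yoda1, where 12.0% of all tested genes were apart in that direction. The median log2 fold change of the 6 was -0.24, against 0.01 over all genes.

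Ccr1, a receptor of CCL3 and CCL5, was at 20.9, 24.5 and 27.1 CPM with DMSO and 13.7, 10.6 and 11.6 CPM with Yoda1. Its groups were apart, but the log2 fold change of -1.01 (SE 0.23) did not pass in edgeR (adjusted p = 0.0750), while DESeq2 gave an adjusted p of 0.00246. Ccr7, which guides cells to lymph nodes, was at 17.7, 15.5 and 19.2 CPM with DMSO and at 4.52, 3.98 and 12.8 CPM with Yoda1. The log2 fold change of Ccr7, -1.30 (SE 0.45, edgeR, adjusted p = 0.222), became -2.04 without Yoda1 6, where it passed (adjusted p = 0.0209). Ccr3, the eotaxin receptor, was at 8.49 to 11.9 and 5.19 to 6.80 CPM and did not pass (adjusted p = 0.400).

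Xcr1, the receptor of XCL1 and a marker of conventional type 1 dendritic cells, was at 58.9, 55.3 and 67.8 CPM with DMSO and at 69.0, 70.9 and 60.6 CPM with Yoda1, with overlapping groups. Of 9 dendritic cell markers 4 were in the table, and those other than Xcr1, Zbtb46, Itgax and Batf3, together reached only 0.563 to 2.88 CPM with DMSO and 0.130 to 5.20 CPM with Yoda1, and Batf3 was at 0 in each DMSO library. The level of Xcr1 was therefore not accompanied by those markers.

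Cxcr6 and Ccr2 lie among other receptor genes on chromosome 9. From the start of Ccr9 at 123678439 to the end of Ccr2 at 124113557, a span of 435 kb (GRCm38), there are 7 listed receptor genes: Ccr9, Cxcr6, Xcr1, Ccr1, Ccr1l1, Ccr3 and Ccr2 in that order. The log2 fold changes of the 6 tested genes in that order, without Ccr1l1, were 1.46, 0.45, 0.14, -1.01, -0.63 and -0.11. Neighbours thus did not share a direction throughout: the 95% interval of Cxcr6 (0.28 to 0.62) and that of Ccr1 (-1.53 to -0.49) do not meet, and Xcr1 between them was at 0.14 (-0.20 to 0.48). Reads from receptors of similar sequence, such as Ccr1 and Ccr3, could have been divided between them. Ccr9 was at 0.938 to 1.63 CPM with DMSO and at 5.10, 0.462 and 4.60 CPM with Yoda1, where Yoda1 5 was the lowest of all 6 libraries. Ccr9 shares 1932 exonic bases with a transcript on the other strand.

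**Figure D4:**
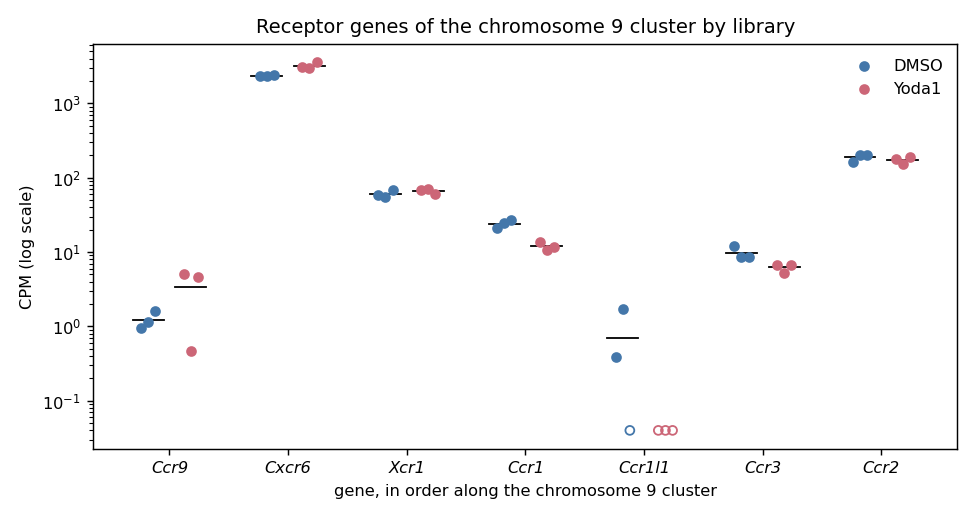
Level in CPM on a log axis of 7 chemokine receptor genes of the chromosome 9 cluster, in their order along the chromosome, with 1 point per library, DMSO in blue and Yoda1 in red, and a bar at the mean of 3 libraries; open points are libraries at 0. Cxcr6 is the highest in each library, its groups are apart upward, those of Ccr1 and Ccr3 are apart downward, and those of Xcr1 and Ccr2 overlap.

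The ligands of the receptors that could be read among other chemokines were low and uneven between libraries. Cxcl16, the ligand of CXCR6, was at 0.0552, 0.0316 and 1.34 CPM with DMSO and 1.87, 1.10 and 2.03 CPM with Yoda1, a change that missed the threshold (edgeR, adjusted p = 0.544). Cxcl16 shares 552 exonic bases with Zmynd15 on the other strand, so its few reads cannot be assigned with certainty. Ccl22, a ligand of CCR4, was at 0, 3.53 and 2.26 CPM with DMSO and 0, 0.0577 and 2.15 CPM with Yoda1 (adjusted p = 0.767). Ccl2, the ligand of CCR2, was below the filter, at no more than 0.0949 CPM with DMSO and 1.81 CPM with Yoda1. Of 32 other chemokines listed 16 were in the table and 7 tested, and none passed with any of the 3 tools, nor in edgeR without adjustment at 0.05. Those that averaged over 5 CPM were Cxcl3, a neutrophil-attracting chemokine, at 48.7 to 52.3 and 42.8 to 51.7 CPM, and Ccl25, the ligand of CCR9, at 9.10 ± 3.69 and 8.98 ± 4.39 CPM (SD, n = 3). Ccl25 shares 204 exonic bases with Elavl1 on the other strand.

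Downstream of the receptors, 39 of 44 listed signalling genes were tested: Pik3r5 and Rgs2 rose, no gene fell and 37 did not pass, and the median log2 fold change was 0.04. Before adjustment there were 3 higher and 3 lower (p under 0.05), where 7.39% and 7.11% of all tested genes were. After adjustment DESeq2 called 3 higher and 1 lower, where it called 414 and 452 of all 13325 genes. Voom called 2 and 0, where it called 121 and 179 of all genes. Pik3r5, which encodes the p101 regulatory subunit of phosphoinositide 3-kinase gamma, was at 33.2, 32.2 and 43.7 CPM with DMSO and 87.8, 100 and 77.7 CPM with Yoda1. All Yoda1 libraries of Pik3r5 were above all DMSO libraries, a log2 change of 1.29 (SE 0.18, edgeR, adjusted p = 0.0136). The catalytic subunit gene Pik3cg was at 165 ± 20.8 and 133 ± 21.9 CPM and did not pass (adjusted p = 0.399). Rgs2, an inhibitor of G protein signalling, rose from 11.1 ± 1.33 to 30.9 ± 8.10 CPM (adjusted p = 0.0320). Without 1 library the adjusted p reached at most 0.104 for Pik3r5 (without DMSO 2) and 0.174 for Rgs2 (without DMSO 2), and the calls remained in the fits without Yoda1 4 or Yoda1 6 for Pik3r5 and without Yoda1 4 for Rgs2. The inhibitory G protein gene Gnai2 was at 1106 ± 64.0 and 999 ± 14.1 CPM, and the receptor kinase gene Grk2 at 116 ± 14.5 and 72.4 ± 13.4 CPM; neither passed (adjusted p = 0.398 and 0.0926).

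Among receptors for other chemoattractants, 10 of 19 were tested; in edgeR Cysltr1 fell and the other 9 did not pass, with 1 higher and 1 lower before adjustment (p under 0.05). DESeq2 and voom each called 1 higher and 1 lower. Cysltr1 encodes a receptor for cysteinyl leukotrienes, lipid mediators that activate ILC2s. It was at 339, 364 and 371 CPM with DMSO and at 234, 230 and 267 CPM with Yoda1. On the log2 scale it changed by -0.56 (SE 0.10, edgeR, adjusted p = 0.0379), and of the 6 fits with 1 library left out, that without Yoda1 6 passed (highest adjusted p = 0.193, without DMSO 2). Ltb4r1, the receptor of leukotriene B4, was at 840, 892 and 872 CPM with DMSO and 1060, 1098 and 1109 CPM with Yoda1, with groups apart. Its log2 fold change of 0.33 (SE 0.07) did not pass in edgeR (adjusted p = 0.0634), and this is the gene that DESeq2 and voom called higher. Like that of Cxcr6, the calls of Pik3r5, Rgs2 and Cysltr1 were lost with summed libraries, with the label suffix as a term and with DMSO 1 alone, in each case with the direction kept.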

How the data were processed

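The authors deposited 1 table of expected counts, estimates that can hold fractions of a read, with a value for each gene in 6 RNA-seq libraries. Per the labels' protocols, libraries were made from 10 ng of total RNA; the genome build was mm10 per the submitters' processing notes, and the deposited table's name points to Partek software. The aligner, counting method, strand setting and annotation are unknown, being not given in the sources used here. In the deposited table the control is named PBS where the sample labels say DMSO; the labels were followed.

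Counts were rounded to whole numbers and fitted over all 13325 genes that filterByExpr left (a minimum count of 10 and a minimum total of 15) with edgeR 4.0.16 in R 4.3.3: TMM factors, glmQLFit and glmQLFTest without covariates, two-sided, with Benjamini-Hochberg adjustment and a threshold of 0.05. SE is the size of the log2 fold change over the square root of F, and 95% intervals use the moderated degrees of freedom. The fit was tested on simulated data with larger changes than that of Cxcr6 and less variation between libraries than here. That test therefore does not show how the fit performs on changes of such a size. Total counts set the precision of low genes. As alternatives, DESeq2 1.42.0, voom of limma 3.58.1, RLE and upper quartile factors and other filters were run, as were fits with a term for the suffix in the labels, with libraries of a shared label number added together, and with libraries left out.

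The members and gene lists were chosen with earlier results of these data known. The text names all listed members, up to 6 genes past the threshold in each further list (or the 2 with the smallest p where none passed), and other chemokine genes averaging at least 5 CPM; any other gene was named after its values were seen. Results on withheld items are not reported here: 1 tested gene stayed in the fit over all genes but was taken out of the list counts, which could therefore differ from those of the full list. The labels do not state that the 3 libraries per group are from separate animals or cultures; p-values thus reflect only the variation among libraries, possibly technical. DMSO 2 and DMSO 3 share the label number 19, and Yoda1 4 and Yoda1 5 the number 21. Libraries of a group differed by more than counting noise (chi-square over its degrees of freedom at least 18.11), as separate library preparations of 1 sample also could, so this does not show that they are independent; the labels list 6 samples, and each entered the fit as its own library.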

Additional observations from a re-analysis of the deposited data

How the results depend on the processing

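Of the 7 genes tested in the main fit, only Cxcr6 passed in any fit. Ccl4, below the filter of the main fit, was not read in the alternatives. Cxcr6 kept its direction in all 15 alternatives and passed in 8. The number of the 7 genes called higher was 0 with the label suffix as a term and with libraries of a shared label number summed. It ran from 0 to 1 with each library left out, and the number called lower was 0 in each fit. Over all genes, 76 were higher and 123 lower, against 414 and 452 in DESeq2, 158 and 290 with a filter of 10 CPM in 3 libraries, 2 and 1 with the label suffix, 1 and 0 with summed libraries, and 0 and 0 with DMSO 1 alone. Voom called 121 higher and the fit without a filter 50. With each library left out the counts ran from 4 to 74 higher and from 5 to 146 lower.

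Some changes that never passed also changed sign. Ccr2 was at 0.08 with DMSO 1 alone. Ccr8 was at 0.01 with summed libraries, 0.03 with DMSO 1 alone, and -0.12 to 0.05 with each library left out. Ccl3 was at 0.53 in voom, 0.12 with summed libraries, 4.13 with DMSO 1 alone, and -0.82 to 0.25 with each library left out. Ccl5 was at -0.03 in voom, -0.0007 with the label suffix, -0.21 with DMSO 1 alone, and -0.48 to 0.48 with each library left out. The cause was not tested. Fits with fewer libraries filter genes anew, and in the fit of DMSO 1 alone the lone library is assumed to vary like the Yoda1 libraries. Cxcr4 and the 3 ligands had 21 to 130 counts per group. No paired analysis was possible because the labels number the DMSO libraries 1 to 3 and the Yoda1 libraries 4 to 6.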
